A study of Mus musculus with 2 samples.

Results

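The B cell receptor complex and its proximal kinases were examined at 9 of the 21951 protein-coding genes of GENCODE vM21 on mm10. The genes were chosen by name: Cd79a, Cd79b, Cd22, Cd72, Blnk, Blk, Btk, Syk and Lyn. All peaks that touched a gene body or the 20 kb on each side of it were taken, which gave 41 of 25343 peaks in the library prepared without density gradient centrifugation and 145 of 89382 peaks in the library of the 50 µL reaction system. scFFPE-ATAC tags open chromatin with Tn5 transposase in nuclei from formalin-fixed paraffin-embedded (FFPE) tissue and adds cell barcodes by split-and-pool ligation. Both libraries were made from spleen of C57BL/6J mice, described as 8 weeks old and of both sexes, fixed for 16 h in formalin and sampled as punch cores. Each condition had 1 library, so no difference between them was tested. The first condition left out the density gradient, the step that separates nuclei from debris, and the other ran the Tn5 reaction in 50 µL. The study's methods name a larger standard Tn5 volume for the single-cell assay, at the same enzyme concentration, without naming the library that skipped the gradient. Whether the 50 µL library passed through the gradient, and whether the libraries shared an animal, are not given in the sources used here.

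The B cell receptor is a membrane immunoglobulin carried with the Cd79a and Cd79b chains, whose cytoplasmic tails pass on the signal. When antigen is bound, Src family kinases such as Lyn and Blk phosphorylate these tails, Syk docks on them, and the adaptor Blnk brings Btk to its substrates. Cd22 and Cd72 are inhibitory receptors of B cells that recruit phosphatases, and the spleen is a main site of mature B cells.

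Each list pools the reads of a library, so it holds no value per cell, and the sources used here do not say if barcodes outside the cell filter added reads. A weak peak present in all nuclei and a strong peak present in a few of them therefore cannot be told apart. The 50 µL list covered 38.0 Mb with a median peak width of 326 bp, and the other list covered 8.81 Mb with a median of 298 bp. Numbers of reads and cells are not in the files, so the depth is unknown and fold enrichment is compared within a list. Of the B cell marker genes, which include Cd79a and Cd79b, 6 of 6 had a promoter peak in the 50 µL list and 2 of 6 without the gradient. T cell markers had 2 of 6 and 0 of 6, red pulp macrophage markers 3 of 5 and 0 of 5, and erythroid markers 2 of 4 and 1 of 4. Genes of other tissues had 2 of 10 and 1 of 10. Over all protein-coding genes the shares were 51.9% in the 50 µL list and 39.6% without the gradient. All these counts use the gene 5' end alone. At another annotated start, Cd3d, Lef1 and Spic had a peak in both lists, and Cd28 and Gata1 in the 50 µL list alone. No B cell marker was added in this way, so the gap between marker lists depends on the start used.

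The 200 bases upstream of the annotated 5' end are shown first for 6 of the genes, because the letters shared by some of them are short and can be read directly. Each sequence is from the RefSeq copy of mm10, runs 5' to 3' in the direction of transcription and ends at position −1. Capitals mark matches, on either strand, to GAGGAAGT (the PU.1 consensus), GGAAGT (the ETS core, which PU.1 contains), ATGCAAAT (the octamer of POU2F factors), CAGCTG (the E-box of TCF3), TGTGGT (RUNX) and GGGCGG (the GC box of SP and KLF factors).
Cd79a (chr7:24897181-24897380, plus strand): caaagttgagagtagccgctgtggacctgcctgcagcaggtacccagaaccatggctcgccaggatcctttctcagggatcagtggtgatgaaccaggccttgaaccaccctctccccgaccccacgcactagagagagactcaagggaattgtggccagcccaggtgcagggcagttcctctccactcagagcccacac
Cd79b (chr11:106314763-106314962, minus strand): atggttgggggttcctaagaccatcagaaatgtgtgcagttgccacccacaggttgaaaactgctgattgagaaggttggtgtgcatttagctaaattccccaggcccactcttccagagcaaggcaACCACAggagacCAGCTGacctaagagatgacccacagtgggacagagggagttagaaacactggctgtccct
Cd72 (chr4:43454629-43454828, minus strand): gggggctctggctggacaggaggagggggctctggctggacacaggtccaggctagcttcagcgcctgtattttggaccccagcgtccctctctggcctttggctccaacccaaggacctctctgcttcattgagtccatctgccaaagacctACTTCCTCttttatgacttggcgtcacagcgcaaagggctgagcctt
Blnk (chr19:40994536-40994735, minus strand): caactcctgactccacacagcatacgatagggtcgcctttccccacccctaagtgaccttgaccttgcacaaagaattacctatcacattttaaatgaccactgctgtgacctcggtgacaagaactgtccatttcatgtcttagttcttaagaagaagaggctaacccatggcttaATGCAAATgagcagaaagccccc
Blk (chr14:63417038-63417237, minus strand): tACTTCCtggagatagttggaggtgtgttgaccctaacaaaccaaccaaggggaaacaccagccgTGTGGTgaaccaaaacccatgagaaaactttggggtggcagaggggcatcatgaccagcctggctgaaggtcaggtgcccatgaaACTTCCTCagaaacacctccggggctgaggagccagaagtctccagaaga
Syk (chr13:52582973-52583172, plus strand): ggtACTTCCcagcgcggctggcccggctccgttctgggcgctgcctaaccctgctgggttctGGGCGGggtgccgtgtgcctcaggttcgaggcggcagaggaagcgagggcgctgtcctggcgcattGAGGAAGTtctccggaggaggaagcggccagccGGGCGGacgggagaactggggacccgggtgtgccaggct

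PU.1 letters lay upstream of Cd72 at −47 to −40, of Blk at −50 to −43 and of Syk at −72 to −65. That is 3 of the 8 genes whose windows are given, and 2.06% of all protein-coding genes held these letters in the same window. The octamer stood upstream of Blnk at −23 to −16, 1 of 8 genes beside 1.22% of all. The ETS core was found at 4 of 8 genes (17.1% of all), namely those 3 with PU.1 letters and Btk. Cd79b held an E-box at −61 to −56 (10.2% of all genes) and a RUNX match at −73 to −68, which Blk shared at −135 to −130 (10.4% of all). GC boxes were found at Syk, 1 of 8 genes beside 37.5% of all. The EBF core CCCNNGGG was in none of the 8 windows and in 11.6% of all, and the same absence held for GGAANNGAA (ETS-IRF composite, 5.31%), GGGACTTTC (NF-kB, 0.246%) and GATAAG (the site of GATA factors, 4.85%). Cd79a and Cd22 had no match to any of the 10 consensus sequences there. These are matches of letters in 1 fixed window and say nothing by themselves about binding. The window leaves out bases past the 5' end. There, around peak summits, the EBF core was found in the Cd79b exon 1 peak of both lists and in the Cd72 peak at 847 bp of the 50 µL list.

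Peaks of the 50 µL list covered all 200 of these bases at Cd79a, Cd22, Cd72 and Blk, and 84 of them at Cd79b. At Blnk 5 bases were covered, and at Btk and Syk none, so the PU.1 letters of Syk and this octamer of Blnk lay outside the called peaks. The Blnk promoter peak of the 50 µL list held another octamer, within the 200 bp around its summit at 123 bp. Without the gradient, peaks covered 179 bases at Cd22 and 90 at Cd79b.

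A promoter peak, meaning any peak within 1 kb of the gene 5' end, was called at all 9 genes in the 50 µL list and at 4 of 9 (Cd79b, Cd22, Blnk and Lyn) without the gradient. The shares of all protein-coding genes, 51.9% and 39.6%, stand beside these counts. When the 50 µL list was cut to its 25343 most significant peaks, Cd79b, Cd22 and Btk kept a promoter peak, 3 of 9 beside 41.2% of all genes. The promoters of the other 6 genes were thus called in the longer list by peaks below that rank. A promoter peak of fold enrichment 4 or more was found at 1 of 9 (Btk) in the 50 µL list, beside 34.2% of all genes, and at 2 of 9 (Cd79b and Lyn) without the gradient, beside 36.0%.

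Most of these genes had promoters poor in CpG. The observed to expected CpG ratio in the 1000 bp around the 5' end had a median of 0.256 over the 9 genes and of 0.553 over all genes, and 7 of 9 lay below the latter. Syk (0.768) and Lyn (0.774) were the exceptions, and Blk had the lowest ratio (0.113). Among all 10975 genes below the median, 23.5% had a promoter peak in the 50 µL list and 12.6% without the gradient. Of the 7 genes studied here that lay below it, 7 had one in the 50 µL list and 3 without the gradient.

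**Figure D1:**
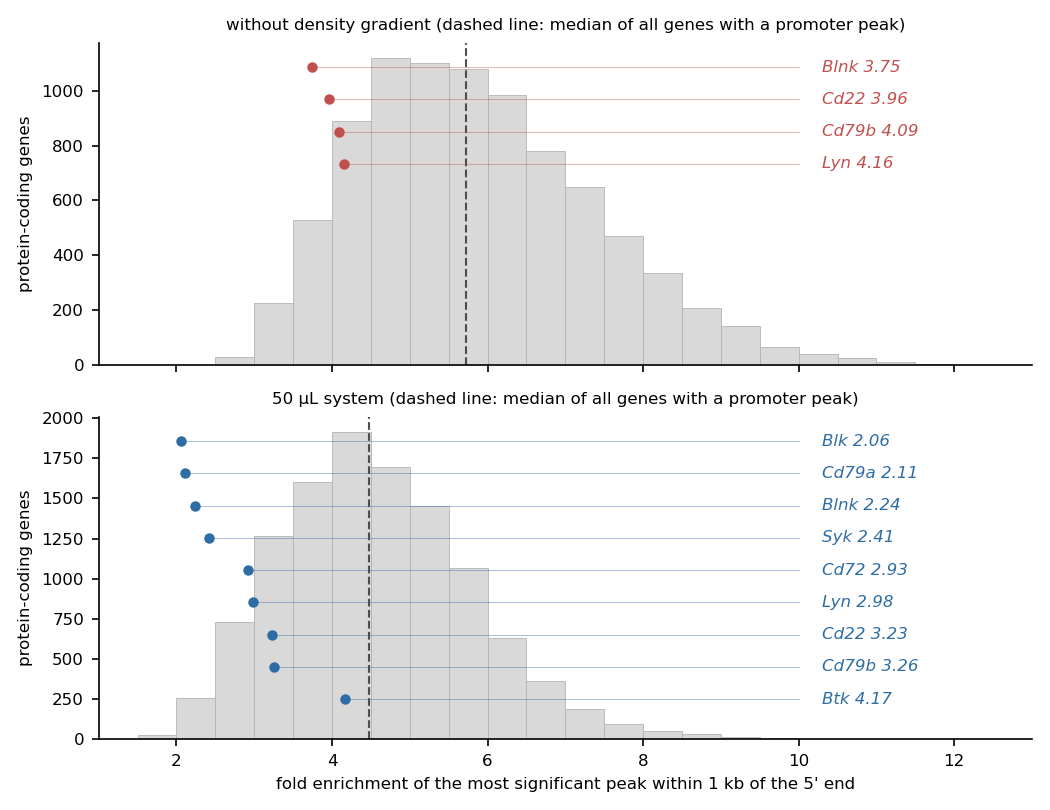
Fold enrichment of the most significant peak within 1 kb of the 5' end, for each of the 9 genes that had one (points, labelled with the value) and for all protein-coding genes with such a peak (grey bars, genes per bin of 0.5; dashed line, their median). All points lie below the median of 5.72 without the gradient (upper panel) and of 4.48 in the 50 µL list (lower panel).

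Where promoter peaks were called at the gene 5' end, they were low and narrow. Internal starts further away were not included. There, 50 µL peaks of Cd22 (fold 3.33), Syk (3.76) and Lyn (5.30, in repeat) exceeded the promoter peak of the same gene in fold. Fold enrichment, the ratio of pileup to local background at the summit, ranged from 2.06 to 4.17 in the 50 µL list with a median of 2.93, beside 4.48 over all genes with a promoter peak. Without the gradient it ranged from 3.75 to 4.16 at the 4 genes with a peak (median 4.03), beside 5.72. Median widths were 421 bp and 239 bp for the 9 genes, and 817 bp and 423 bp for all genes. The −log10 q, the caller's significance, had a median of 20.4 (50 µL) and 8.19 (without the gradient), beside 39.8 and 13.6. Genes below the median CpG ratio had median promoter folds of 4.08 and 5.51, and the 7 members among them 2.93 and 3.96. The median −log10 q was 28.1 and 11.7 for these genes, and 22.1 and 7.55 for the members among them. Widths were not compared within this group.

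The promoter peak led the window at none of the 9 genes in the 50 µL list, where leading means having the highest −log10 q between 20 kb upstream and 20 kb downstream. It led at 48.0% of all protein-coding genes with a promoter peak. After peaks within 1 kb of a transcription start of another gene were left out, it led at 1 of 9 (Btk), beside 65.3% of all. The most significant peak of 8 of these genes thus lay more than 1 kb from the annotated 5' end. These windows held a median of 13 peaks, beside 4 over all genes, and genes with equal numbers of peaks were not compared. The leading peaks of Cd79b, Cd22, Cd72, Blnk and Blk outside promoters were shared. Those of Cd79a and Syk were not, and 53% and 86.5% of the bases around their summits were masked as repeat. That of Lyn was also not shared.

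**Figure D2:**
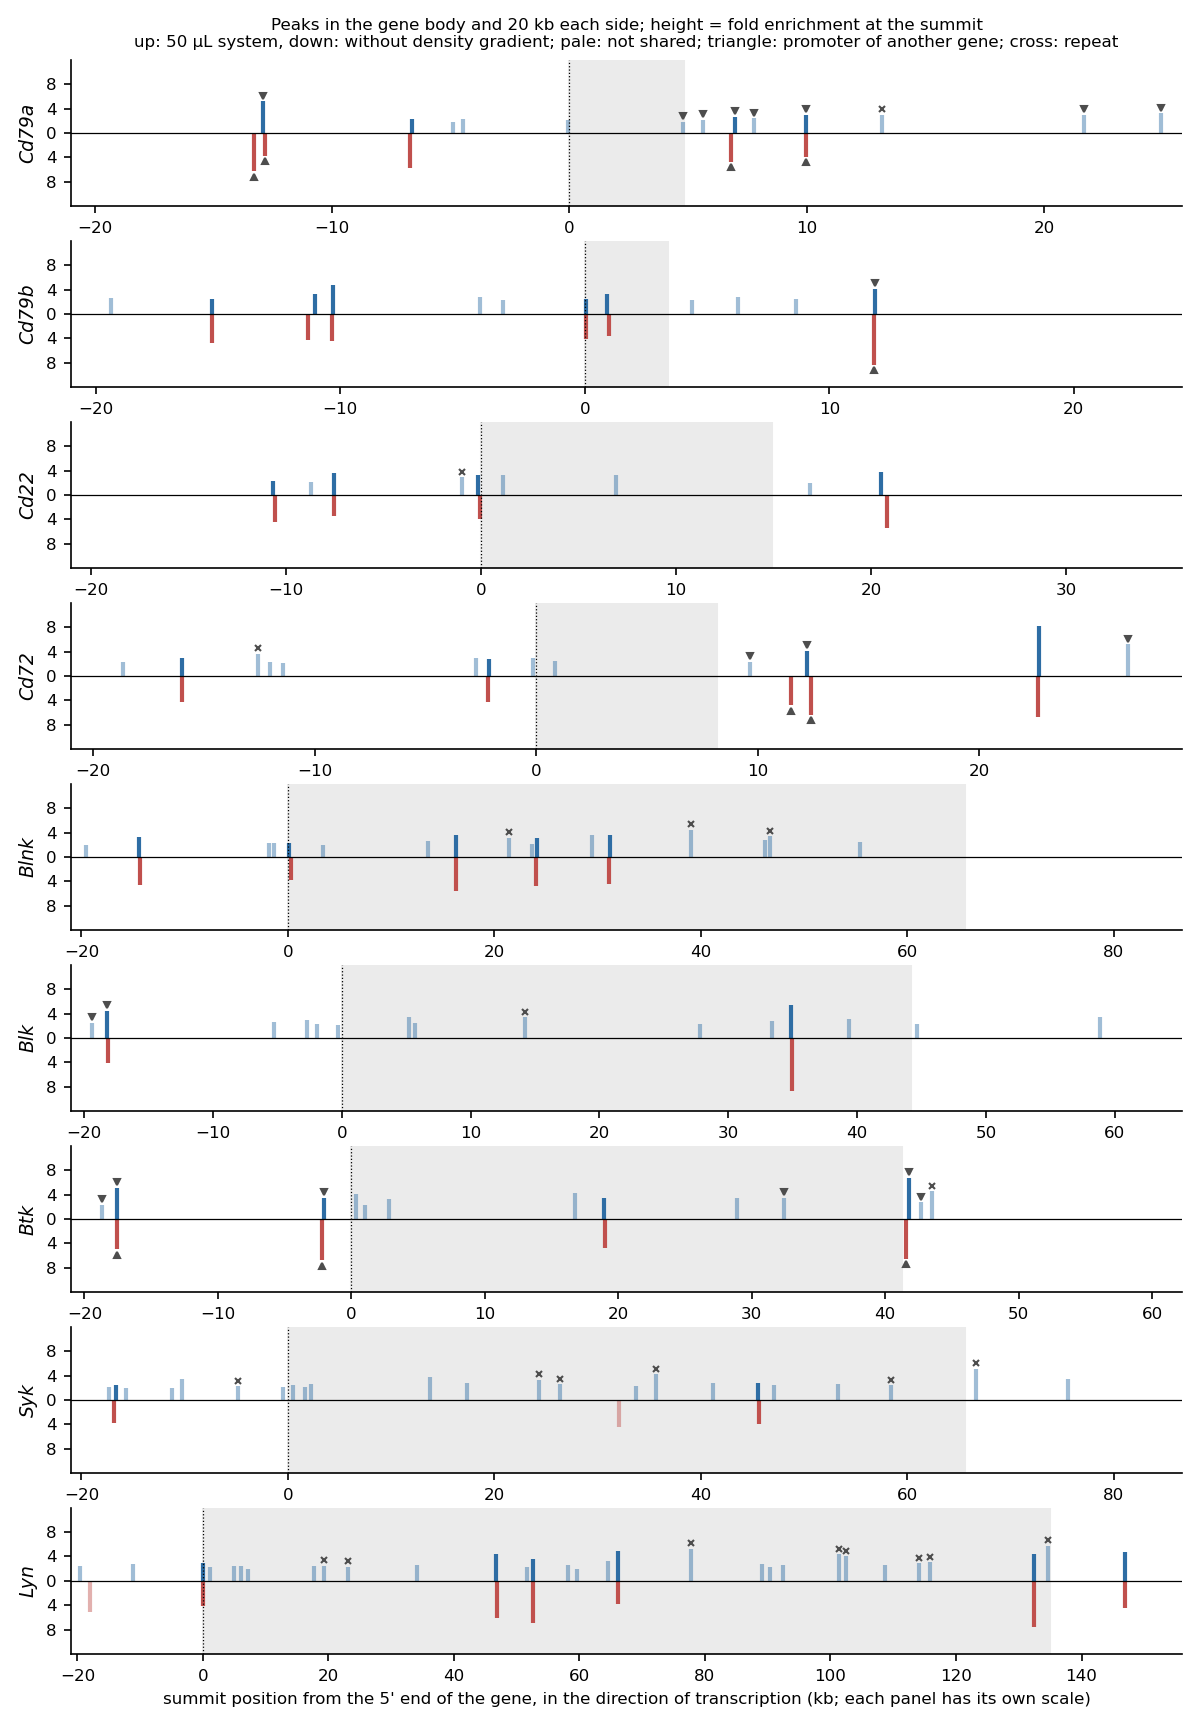
Every peak in the 9 windows, drawn at the distance of its summit from the gene 5' end (x axis, kb, positive in the direction of transcription) with a height equal to its fold enrichment, upward for the 50 µL list and downward for the list without the gradient. Grey marks the gene body, pale lines are peaks not shared with the other list, triangles are peaks at a promoter of another gene and crosses are peaks in repeats; the highest line is the Blk intron peak of 8.67 in the downward direction.

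Cd79a and Cd79b, the signal chains of the receptor, differed in how their promoters were covered. Cd79a (ENSMUSG00000003379.7, chr7:24897381-24902197, plus strand) had 13 peaks in its window in the 50 µL list and 5 without the gradient. Its promoter peak was in the 50 µL list alone, with its summit at −75 bp, a width of 533 bp, a fold enrichment of 2.11 and a −log10 q of 10.0. No peak of either list lay in the gene body apart from that promoter peak and those at neighbouring starts. The larger peaks of this window stood at neighbouring starts. Rps19, a ribosomal protein gene, had a peak at −12.9 kb of fold 5.24 and −log10 q 69.5, the most significant of all 145. Peaks near starts of Arhgef1, a guanine nucleotide exchange factor, stood at 6.99 kb (fold 2.67) and 9.99 kb (fold 3.00). In all, 8 of the 13 peaks lay within 1 kb of an annotated start of another gene. The only shared peak of the window that was not at a neighbour's start lay 5' of the gene, at −6.70 kb with fold 5.75 without the gradient and at −6.62 kb with fold 2.23 in the 50 µL list.

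Cd79b (ENSMUSG00000040592.11, chr11:106311341-106314762, minus strand) had 12 peaks in the 50 µL list and 6 without the gradient, and all 6 of the latter were shared. Its 5' end carried a pair of peaks in both lists. In exon 1 the fold was 2.43 (summit at 53 bp) in the 50 µL list and 4.09 (69 bp) without the gradient. In intron 1 it was 3.26 (932 bp) and 3.55 (977 bp). The 5' pair was thus found at nearly the same places in both libraries. Further upstream, shared peaks stood at −10.3, −11.0 and −15.3 kb. In the 50 µL list that at −10.3 kb had fold 4.69 and −log10 q 46.3, above both promoter peaks. Without the gradient its fold of 4.49 was also above both, but its −log10 q of 8.50 was below the 8.83 of the exon 1 peak. The highest peak without the gradient, with fold 8.30, lay downstream at 11.8 kb near a start of Gh, the growth hormone gene, where the 50 µL list had fold 4.12.

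Cd22 and Cd72, the inhibitory receptors, had their main peaks outside the gene. Cd22 (ENSMUSG00000030577.14, chr7:30865402-30880342, minus strand), a sialic acid-binding lectin, had 9 peaks in the 50 µL list and 4 without the gradient, all 4 shared. The peak nearest its 5' end had a summit at −166 bp and fold 3.21 in the 50 µL list, and at −65 bp and fold 3.96 without the gradient. Another 50 µL peak had its summit at −989 bp, where all 200 bases around it were masked as repeat. Shared peaks upstream at −7.53 kb reached fold 3.56 and −log10 q 36.6 with a width of 1076 bp, the most significant of the Cd22 window. Of its 15 annotated starts, the internal ones at 1.16 kb and 6.91 kb also had a 50 µL peak beside them, with folds of 3.23 and 3.33, neither of them shared.

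Cd72 (ENSMUSG00000028459.11, chr4:43446462-43454628, minus strand), a C-type lectin, had 13 and 5 peaks. Its promoter was called in the 50 µL list alone, at −161 bp with fold 2.93 and in intron 2 at 847 bp with fold 2.54. The peak at −161 bp included the PU.1 letters shown above. By contrast, a peak at 22.7 kb, downstream of the gene, had fold 8.20 and −log10 q 63.8, the highest fold of all 145 peaks, and fold 6.65 without the gradient. Promoter peaks of Tesk1 (fold 4.14 at 12.2 kb) and Fam166b (fold 5.22 at 26.7 kb) were in the same window. Shared peaks upstream at −2.12 kb and −16.0 kb had folds of 2.71 and 2.92 in the 50 µL list.

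Blnk, the adaptor that joins Syk to its downstream targets, had a weak promoter peak and a row of shared intron peaks. The gene (ENSMUSG00000061132.13, chr19:40928927-40994535, minus strand) had 17 peaks in the 50 µL list, 12 of them in the gene body outside promoters, and 5 without the gradient, all shared. The promoter peak had fold 2.24 in the 50 µL list (summit at 123 bp) and 3.75 without the gradient (305 bp). In intron 1 at 16.3 kb the folds were 3.62 and 5.59, in intron 2 at 24.2 kb 3.12 and 4.79, and in intron 4 at 31.2 kb 3.65 and 4.49, the 50 µL value given before the other. All 3 intron folds exceeded that of the promoter in their own list. The intron 1 peak was the most significant of the window in both lists (−log10 q 34.3 and 13.9). Its 200 bases around the summit are printed here with those of the leading peaks outside promoters of Cd79b, Cd72 and Syk, each in the direction of its gene, with capitals as above and for the ETS-IRF composite.
Cd79b (chr11:106324955-106325154, minus strand): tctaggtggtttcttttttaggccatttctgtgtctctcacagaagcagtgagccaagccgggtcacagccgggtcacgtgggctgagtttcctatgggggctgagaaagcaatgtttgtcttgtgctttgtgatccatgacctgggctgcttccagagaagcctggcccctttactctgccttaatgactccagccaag
Cd72 (chr4:43431807-43432006, minus strand): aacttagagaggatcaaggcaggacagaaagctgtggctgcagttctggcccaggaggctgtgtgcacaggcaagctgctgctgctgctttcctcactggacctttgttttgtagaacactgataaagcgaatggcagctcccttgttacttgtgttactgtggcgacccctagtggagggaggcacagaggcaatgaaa
Blnk (chr19:40978140-40978339, minus strand): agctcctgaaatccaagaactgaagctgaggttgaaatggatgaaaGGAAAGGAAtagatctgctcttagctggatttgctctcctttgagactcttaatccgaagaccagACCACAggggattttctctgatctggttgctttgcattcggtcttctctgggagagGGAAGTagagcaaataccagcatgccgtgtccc
Syk (chr13:52649730-52649929, plus strand): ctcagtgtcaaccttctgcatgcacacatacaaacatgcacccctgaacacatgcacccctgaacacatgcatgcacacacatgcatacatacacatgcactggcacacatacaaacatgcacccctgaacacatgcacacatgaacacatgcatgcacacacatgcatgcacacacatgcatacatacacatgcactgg

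The Blnk intron sequence held GGAANNGAA (as GGAAAGGAA), the RUNX letters and the ETS core. The Cd79b and Cd72 sequences had no match to the 10 consensus sequences. The Syk sequence, also without a match, is a tandem repeat of short units and 86.5% of it is masked as repeat in the assembly.

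Blk and Lyn are the Src family kinases of the group, and each had a shared peak inside the gene with a higher fold than its promoter peak. Blk (ENSMUSG00000014453.4, chr14:63372836-63417037, minus strand) had 15 peaks in the 50 µL list, 2 of them shared, and 2 without the gradient, both shared. Its promoter peak, in the 50 µL list alone at −270 bp, had the lowest fold (2.06) and −log10 q (7.50) of the 9 genes. In intron 6 at 34.9 kb a peak reached fold 8.67 without the gradient, the highest of the 41, and 5.33 in the 50 µL list. The summits of this pair lay 32 bp apart. Another peak, in intron 1 at 5.19 kb (fold 3.52), was not shared. The most significant peak of the window, with −log10 q 49.0, lay at −18.2 kb near a start of Fam167a.

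Lyn (ENSMUSG00000042228.14, chr4:3678115-3813122, plus strand), the longest gene at 135 kb, had the most peaks, 30 in the 50 µL list, 6 of them shared, and 7 without the gradient. Its promoter peak was centred on the annotated start in both, at −4 bp with fold 2.98 and at 14 bp with fold 4.16. Shared peaks in intron 1 at 46.8 kb had folds of 4.48 and 6.15, and those at 52.6 kb 3.53 and 6.93. In intron 4 at 66.2 kb they were 4.82 and 3.74, and near the 3' end at 132 kb 4.43 and 7.59. Each of these 50 µL peaks exceeded the Lyn promoter peak in fold, whereas without the gradient that at 66.2 kb did not. The most significant 50 µL peak of the window, also near the 3' end (fold 5.78, −log10 q 48.7), was not shared. A 50 µL peak at 77.8 kb, beside an internal start, had fold 5.30 but was not shared, and 58.5% of the bases around its summit were masked as repeat. The peak at −17.9 kb, with fold 5.14, was called without the gradient alone.

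Syk, the kinase that binds the phosphorylated chains, had its most significant 50 µL peaks at places not called in the other list. The gene (ENSMUSG00000021457.14, chr13:52583173-52648792, plus strand) had 23 peaks in the 50 µL list, of which 2 were shared (26.3% of the whole list), and 3 without the gradient, of which 1 was not shared. At its 5' end the 50 µL list had peaks at −508 bp (fold 2.17) and 455 bp (fold 2.41). A stronger peak stood at an internal start, in exon 1 of the longest coding transcript at 13.7 kb, with fold 3.76 and −log10 q 40.3. Other strong 50 µL peaks were at −10.3 kb (fold 3.44, −log10 q 42.3), in intron 3 at 35.7 kb (4.22, 42.4) and past the gene end at 66.7 kb (5.13, 56.6). All 4 were absent from the other list. That at 35.7 kb was 69.0% and that at 66.7 kb 86.5% repeat. The shared Syk peaks were weak, at −16.7 kb with fold 2.37 and in intron 7 at 45.5 kb with fold 2.72 in the 50 µL list, and 3.82 and 4.01 without the gradient.

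Btk, the Tec family kinase that activates phospholipase C gamma, had the strongest promoter peak of the group. The gene (ENSMUSG00000031264.13, chrX:134542336-134583570, minus strand) had 13 and 4 peaks. The promoter peak had fold 4.17 and −log10 q 43.1 with a summit at 311 bp, and no peak was called there without the gradient. Of the bases around that summit, 46.5% were masked as repeat. In intron 4 at 16.8 kb a peak of fold 4.30 was not shared, whereas in intron 5 at 18.9 kb the folds were 3.50 and 4.77. Its window also held promoter peaks of Timm8a1 at 41.8 kb (fold 6.73), Rpl36a at −2.09 kb (3.49) and Gla with Hnrnph2 at −17.6 kb (5.14). These neighbours made up 3 of the 4 peaks without the gradient.

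**Figure D3:**
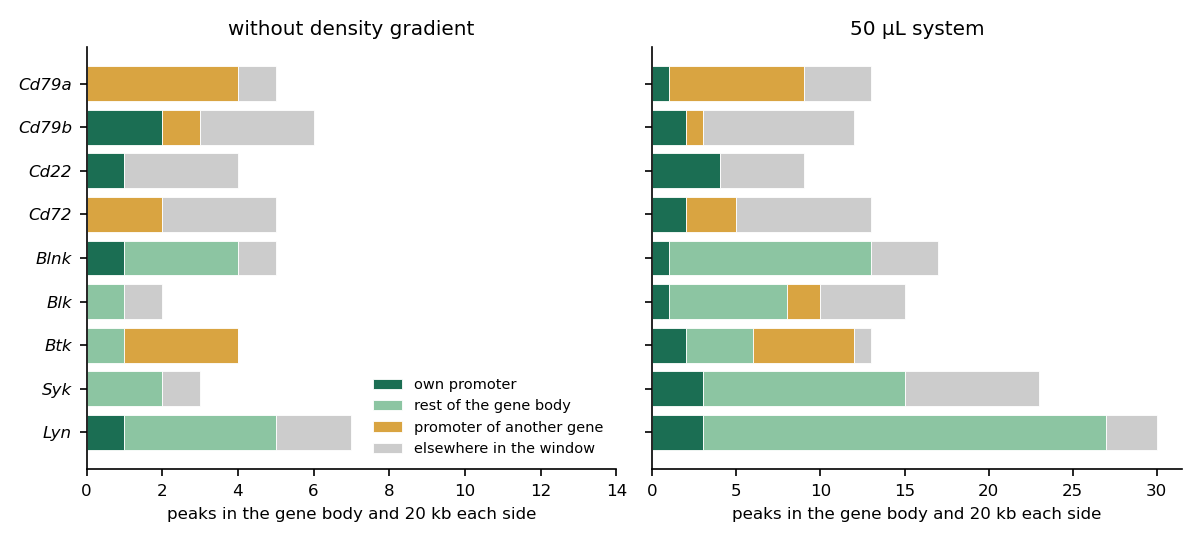
Number of peaks in each window (x axis) by place for the 9 genes, without the gradient (left) and in the 50 µL list (right; the x axes differ). The signal chains and inhibitory receptors have few or no bars for the rest of the gene body, whereas Lyn has 24 such peaks, Blnk 12 and Syk 12 in the 50 µL list.

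Over all windows, 19 of the 145 peaks of the 50 µL list lay within 1 kb of a start of the gene itself, 59 in the rest of its body, 20 at a promoter of another gene and 47 elsewhere. Without the gradient the counts were 5, 11, 10 and 15 of 41. With a promoter window of 500 bp, peaks at a promoter of another gene numbered 12 in the 50 µL list and 9 without the gradient. The counts that follow use 1 kb. The 4 receptor genes had no peak in the body apart from promoters in either list, and the adaptor and kinases held all 59 and all 11. Blnk, Blk, Btk, Syk and Lyn are the longer genes, from 41.2 to 135 kb, against 3.42 to 14.9 kb for the receptors, so length and role cannot be told apart here. Peaks at promoters of other genes had median folds of 3.16 and 5.63 (50 µL and without the gradient), those at the genes' own starts 2.89 and 3.96.

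Peaks were denser in these windows than around a typical gene. The median was 13 peaks per window in the 50 µL list and 5 without the gradient, beside 4 and 1 over all protein-coding genes. Per 10 kb of window the medians were 1.78 and 0.492, beside 0.660 and 0.195, and all 9 genes lay above the median of all genes in both lists. Their range was 1.60 to 2.90 and 0.238 to 1.38. Neighbouring promoters are counted in these densities.

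ETS core letters were more frequent around the summits of these genes than in the lists at large. In 200 bp around the summits, the ETS core was found in 17 of 41 peaks without the gradient (41.5%, beside 24.8% of all peaks of the list) and in 39 of 145 in the 50 µL list (26.9%, beside 18.9%). Peaks at promoters of other genes are included. As 39 of the 41 peaks overlap a 50 µL peak, the 2 lists are not separate observations. PU.1 letters, which also count as an ETS core, were in 5 of 41 (5.04% of all) and 9 of 145 (3.80% of all). Octamers were in 2 of 41 (1.76% of all) and 5 of 145 (1.53% of all). In 100 bp around the summits octamers were in 0 of 41 (0.856% of all) and 1 of 145 (0.684% of all), so their counts depend on the window. RUNX matches were in 3 of 41 and 25 of 145, beside 16.4% and 18.4% of all. The EBF core was in 2 of 41 and 14 of 145, beside 8.32% and 5.19%. For RUNX the 41 peaks held fewer than their list at large, and the 145 were near it. For EBF the 145 peaks were above their list. The 2 of 41 for EBF are too few to set apart from the list, and in 100 bp around the summits they were 4.88%, beside 4.11%. CTCF matches, a search added after the data were seen, were in 3 of 41 and 3 of 145, beside 8.20% and 2.77%.

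Nearly every peak called without the gradient was also in the 50 µL list. At least 1 bp was shared by 39 of 41 (95.1%, exact 95% interval 83.5 to 99.4%), beside 95.3% of that whole list. In the other direction 37 of 145 were shared (25.5%, 18.6 to 33.4%), beside 26.3%. The intervals cover counting error only, and neither share stood apart from its list. Summits of shared peaks lay a median of 67 bp apart, and 26 of 39 were within 100 bp.

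Sharing rose with significance in the 50 µL list. Of its 46 peaks with a −log10 q under 10, 1 was shared (3.81% of all such peaks), of the 72 between 10 and 30, 19 were (23.4%), and of the 27 at 30 or more, 17 were (74.9%). The remaining 10 strong peaks that were not shared included 4 of Syk, and 5 of the 10 were repeats.

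**Figure D4:**
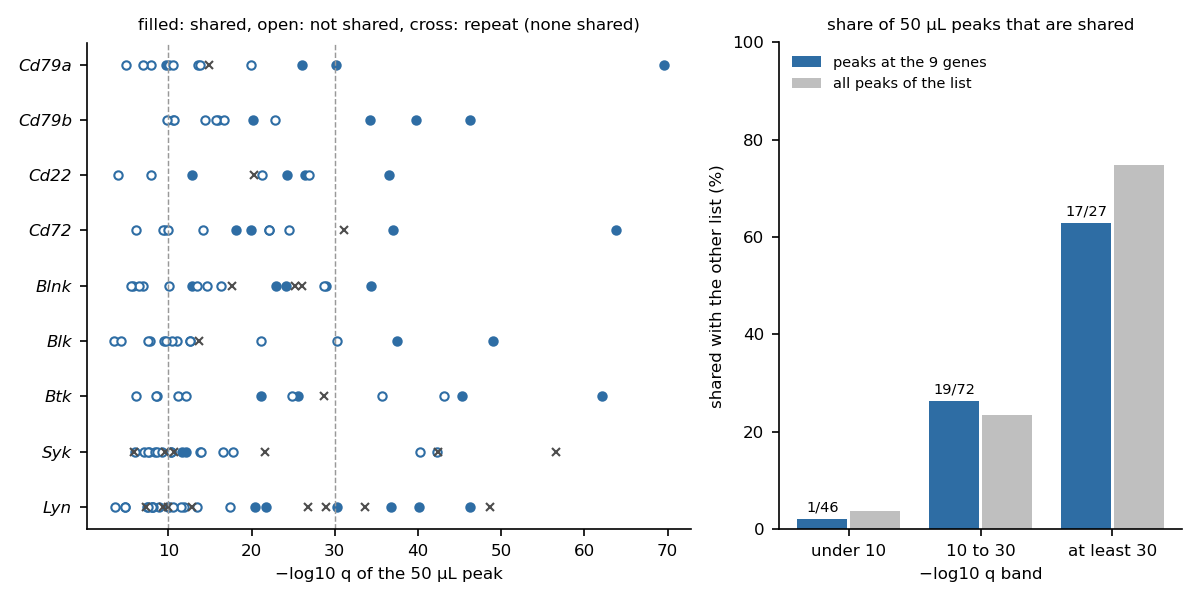
Left, −log10 q of every 50 µL peak at the 9 genes (filled, shared with the other list; open, not shared; cross, at least 50% repeat around the summit; dashed lines at 10 and 30). Right, percent shared in each band for these peaks (blue, counts above the bars) and for all peaks of the list (grey); the share rises from 1 of 46 to 17 of 27.

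Peaks in repeats at these genes were found in the 50 µL list alone. Of the 145 peaks of the 50 µL list, 22 (15.2%) had at least 50% of the 200 bp around the summit masked as repeat, beside 17.6% of all its peaks. None of these 22 was shared, which allows a share of up to 13.6%, and 7.81% of all such peaks of the list were. Lyn had 8 of them, Syk 6 and Blnk 3, and Cd79b had none. Without the gradient none of the 41 peaks was of this kind, which allows up to 7.32%, beside 4.11% of that list. Leaving the 22 out kept a promoter peak at 9 of 9 genes and gave 30.1% shared of 123 peaks.

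The other genes of the pathway, taken from a list of 27 co-receptors, inhibitors and downstream signalling proteins, had a promoter peak at 25 of 27 in the 50 µL list and 16 of 27 without the gradient, and 16 of 27 at equal list length. Pirb, an inhibitory receptor, and Ptpn6, the phosphatase recruited by Cd22 and Cd72, had none within 1 kb of the 5' end in the 50 µL list, although Ptpn6 had a peak at another annotated start in both lists. The most significant were those of Malt1, a paracaspase (fold 4.26), Cr2, a complement receptor (4.01), Cblb, a ubiquitin ligase (4.27), and Siglecg, a relative of Cd22 (4.50), and all but that of Cr2 exceeded the folds of all 9 genes, while Btk alone exceeded Cr2. Cr2, Cblb and Siglecg also had one without the gradient, with folds of 4.19, 4.00 and 4.09. Of 12 other kinases of the Src, Tec and Syk families, 10 had a promoter peak in the 50 µL list, all but Src and Frk (Src had one at another annotated start in both lists), and 5 without the gradient, among them Yes1, Fyn, Tec and Txk.

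**Figure D5:**
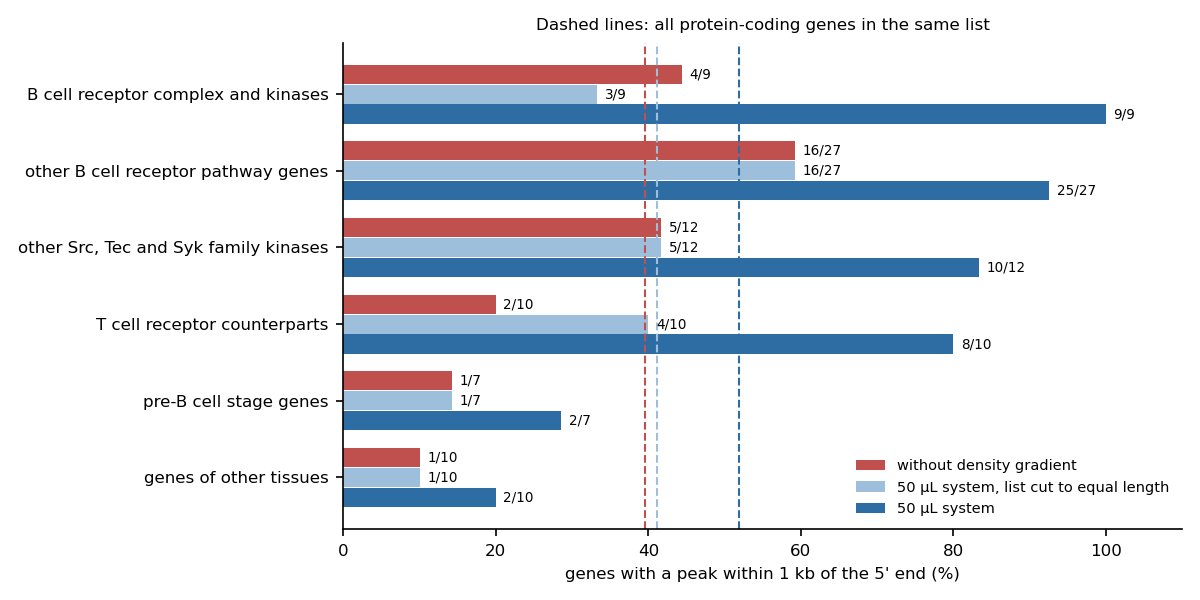
Percent of each gene list with a peak within 1 kb of the 5' end (x axis; counts beside the bars) without the gradient (red), in the 50 µL list cut to equal length (pale blue) and in the whole 50 µL list (blue); dashed lines give the share over all protein-coding genes. The B cell receptor genes reach 9 of 9 in the whole 50 µL list and 3 of 9 at equal length.

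In the 50 µL list a promoter peak was called at 8 of 10 corresponding T cell receptor genes, all but Cd3d and Cd3g. Without the gradient 2 of 10 had one, which were Fyn and Lat. Cd3d had a peak at another annotated start in both lists, and Lck had one there without the gradient. Lck and Fyn, the kinases that act there as Lyn and Blk do in B cells, had folds of 3.03 and 4.24 in the 50 µL list, and Zap70, the counterpart of Syk, 3.24. Genes of the pre-B cell stage, before the mature receptor is made, had 2 of 7 (Vpreb1 and Vpreb3) and 1 of 7 (Vpreb1). These shares stand beside 51.9% and 39.6% of all protein-coding genes, and no test was made between lists.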

How the data were processed

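The data are peak lists of 2 scFFPE-ATAC libraries from mouse FFPE spleen, 1 per condition. Reads were mapped by the authors to mm10 with BWA mem, deduplicated and used for MACS2 peak calling in each library (no model, a shift of 0, q-value threshold of 0.01), after which blacklisted regions were dropped. No correction for the Tn5 cut was thus applied to summit positions. The deposited columns are a display score, left unused here, the fold enrichment, which is a ratio of pileup to local background, −log10 p, −log10 q and the summit offset. All of these vary with sequencing depth, which is unknown, so values were compared within a list.

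Peaks were counted in the gene body plus 20 kb each side and within 1 kb of the annotated 5' end in GENCODE vM21. An overlap of 1 bp or more made peaks shared. Sequences and repeat masking came from the RefSeq copy of GRCm38, the assembly of mm10. The 10 consensus sequences were searched on both strands, and the window upstream of the Lyn 5' end is not reported here. The genes, lists and consensus sequences were chosen with earlier results of these data known, and all 9 genes are named. Of the other lists, genes are named that formed the smaller side of a count, that had up to 4 of the most significant promoter peaks, or whose promoter lay in a window. Zap70 was named after its value was seen, and the CTCF search, the bands of −log10 q, the CpG comparison, the ranking within windows and the repeat measure were also added then. As each condition had 1 library, nothing was tested and p-values are not given. Intervals are exact (Clopper-Pearson), and a count of 0 allows up to 3. Alternatives changed the windows, flanks, overlap rule, thresholds or list length. Counting and motif search were tested on simulated data and gave the simulated number in 15 of 15 quantities. The software was Python 3.11.15 (numpy 2.4.6, pandas 2.3.3, scipy 1.17.1) with figures from matplotlib 3.10.9.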

Additional observations from a re-analysis of the deposited data

How the results depend on the processing

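Of 131 values under other settings, 87 stayed within 1.5 times the reported count, or within its interval for shares. At a fold enrichment of at least 4, promoter peaks remained at 1 of the 9 genes in the 50 µL list (34.2% of all genes) and 2 without the gradient (36.0%), and at 9 of the 39 pathway and family genes in the 50 µL list, where 35 had one with all peaks. With lists of equal length the 50 µL counts were 3 of 9 and 21 of 39. When any annotated start was used, 27 of the 39 had a promoter peak without the gradient, where the 5' end gave 21. In the 50 µL list that setting gave 37, and the counts of the 9 genes did not change. The number of 50 µL window peaks, 145 with 20 kb flanks, was 79 in gene bodies alone, 24 at a fold of at least 4 and 44 at equal length. Without the gradient, 41 became 16 in gene bodies alone and 22 with flanks of 5 kb. The shared percent without the gradient fell from 95.1 to 51.2 with a reciprocal overlap of 50%, to 39.4 at a fold of at least 4 and to 63.4 at equal length. For the 50 µL list, 25.5 became 14.5, 50.0 and 54.5. Windows of 100 bp held any consensus in 56 of the 145 peaks (38.6%, beside 34.0% of the list), where 200 bp gave 92 (63.4%, beside 56.8%). Without the gradient 200 bp gave 27 of 41 (65.9%, beside 66.5%). Fewer peaks or shorter windows enter these counts by construction. No paired analysis was possible because each condition has 1 library, and for the same reason no replicate could be left out. Depth is unknown, so a promoter not called without the gradient may have been below detection.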
